A study of Mus musculus with 8 samples.

Results

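Chemokine receptors that guide T cells to inflamed or peripheral tissue were measured in 4 sorted populations of mouse CD4 T cells. The 9 genes described are Ccr2, Ccr4, Ccr6, Ccr8, Ccr9, Ccr10, Cxcr3, Cxcr6 and Cx3cr1, taken as every non-control array probe that carries one of these gene names. They had 12 probes of 41174 on the array: 6 genes had 1 probe and 3 genes (Ccr2, Ccr4 and Cx3cr1) had 2. These 9 were among 27669 genes in all. The groups were called naive, CD44lo, CD44hi and Treg, the last being regulatory T cells, with 2 samples each and 1 single-colour Agilent array for each sample. All 8 samples were sorted CD4+ T cells of male C57BL/6 mice aged 15 weeks, from spleen and lymph nodes that had been pooled. The series title adds that the mice were Ox40-cre/ROSA-YFP, a design in which Cre recombinase driven by the Ox40 gene (Tnfrsf4) switches on a yellow fluorescent protein in cells that have expressed Ox40 and in their descendants. The sort gates and the YFP status of each group, and whether tissue of several mice was combined, are not given in the sources used here. Whether the 2 samples of a group came from separate mice is not stated either, so the p-values reflect only how far these samples spread, and that spread may be technical.

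Chemokines are small secreted proteins that bind receptors with 7 transmembrane helices, which signal through inhibitory G proteins to turn a concentration gradient into directed migration. Naive T cells use Ccr7 and L-selectin to recirculate through lymph nodes, and antigen-experienced cells take up further receptors that admit them to particular tissues. Cxcr3, Ccr2, Cxcr6 and Cx3cr1 are known from cells that enter inflamed sites, Ccr6 from Th17 cells and regulatory cells at mucosal surfaces, Ccr4, Ccr8 and Ccr10 from cells that enter skin, and Ccr9 from cells that enter the small intestine.

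The probe sequences shown here are the ones whose readings matter most for what follows, read 5′ to 3′ from the array files, with coordinates on mouse build mm7 as those files give them. Capitals are not used in the probes because no part of them is set apart. The first is the only probe of Ccr6, on the plus strand at chr17_random:1192824-1192883, the second the only probe of Ccr8, on the plus strand at chr9:119790218-119790277, and the third the dimmer Cx3cr1 probe, on the minus strand at chr9:119747387-119747446, which did not follow the brighter one. The last is the stretch that both Ccr4 probes share, on the minus strand at chr9:114142769-114142798, so that those probes are not independent readings.
Ccr6 probe: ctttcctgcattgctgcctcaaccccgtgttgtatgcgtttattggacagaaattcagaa
Ccr8 probe: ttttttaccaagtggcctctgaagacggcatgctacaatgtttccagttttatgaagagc
Cx3cr1 dimmer probe: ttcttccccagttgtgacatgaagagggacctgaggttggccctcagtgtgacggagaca
Ccr4 shared stretch: cttgagtggatctctagtttggttgaacta

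Levels are given as relative signal, the background-subtracted signal of a probe as a percentage of the 75th percentile of its own array, and differences as log2 differences of that signal with the standard error (SE) of the fit, n = 2 arrays per group. Relative signals of different genes are not compared, because each probe has its own efficiency. A probe was well above background where the image software marked it so. Where a group had no array above background, a fold change is a lower bound written "at least", computed against the dimmest signal that counted as above background on those arrays. It bounds the fold only within this background subtraction, and some alternatives gave smaller differences. The 75th percentile of the signal was 639 on naive array 2 and 991 to 1337 on the other 7 arrays, and 59.2% to 68.8% of probes were well above background. All 10 defining T cell genes (Cd3e, Lck, Cd28 and others) were above background in every group, and Cd4 was called in none of the 6 comparisons. Foxp3, the lineage factor of regulatory T cells, had relative signals of 639 and 684 in Treg against 2.35 and 3.89 in naive, and was present in CD44lo (127 and 179) and CD44hi (84.4 and 93.6) as well. Cd44 was 4.36-fold higher in CD44hi than in naive (adjusted p = 0.000383), and its difference in CD44lo, log2 0.62 ± 0.19, was not called (adjusted p = 0.14). With 2 arrays a group, the arrays of 2 groups did not overlap for 54.6% to 67.8% of tested genes, depending on the comparison. Where arrays of single receptors are said to lie apart, this is to be read beside those shares. In sorted bulk samples, fewer cells of a type and less RNA per cell cannot be told apart.

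All 9 receptors differed among the 4 groups by the moderated F-test of limma (adjusted p = 2.39e-05 for Ccr2 to 0.0056 for Cx3cr1), a call made for 22.4% of the 17996 genes tested. Naive was the lowest group for 8 of the 9, the exception being Ccr10, which was not well above background in either naive or CD44lo. Against naive, 7 of 9 receptors were higher in CD44lo (4.54% of tested genes were called higher), 8 in CD44hi (13.2%) and 8 in Treg (11.6%), and none was lower, where 0.761%, 14.5% and 10.3% of tested genes were. The median log2 difference of the 9 receptors from naive was 2.85 in CD44lo, 5.61 in CD44hi and 3.95 in Treg, beside -0.13, -0.15 and -0.20 for all genes tested. The medians are the values of Cx3cr1, Ccr10 and Ccr8, above background on 0, 0 and 1 naive arrays. Over the alternatives these values fell as low as log2 0.36, 1.88 and 1.71, so the medians are not to be read as measured sizes. These 3 comparisons share the naive arrays. Ccr2, Ccr4, Ccr6, Ccr8, Cxcr3 and Cxcr6 were higher in all 3. The count in Treg includes Ccr10, whose call was lost with another background correction. A gene was tested only where both arrays of at least 1 group were above background. Ccr2, Ccr4, Ccr10 and Cx3cr1 were above background on 0 naive arrays and Ccr8 on 1. These receptors were thus tested only through groups where they were higher, and the absence of lower calls says nothing about them. The receptors were also chosen with earlier results of these data known. Left out in turn, naive array 1 moved the count of all genes called against naive most, upward in all 3 comparisons. The count of receptors called had little room to rise, since 7, 8 and 8 of 9 were called already. It therefore cannot be set against that change.

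**Figure D1:**
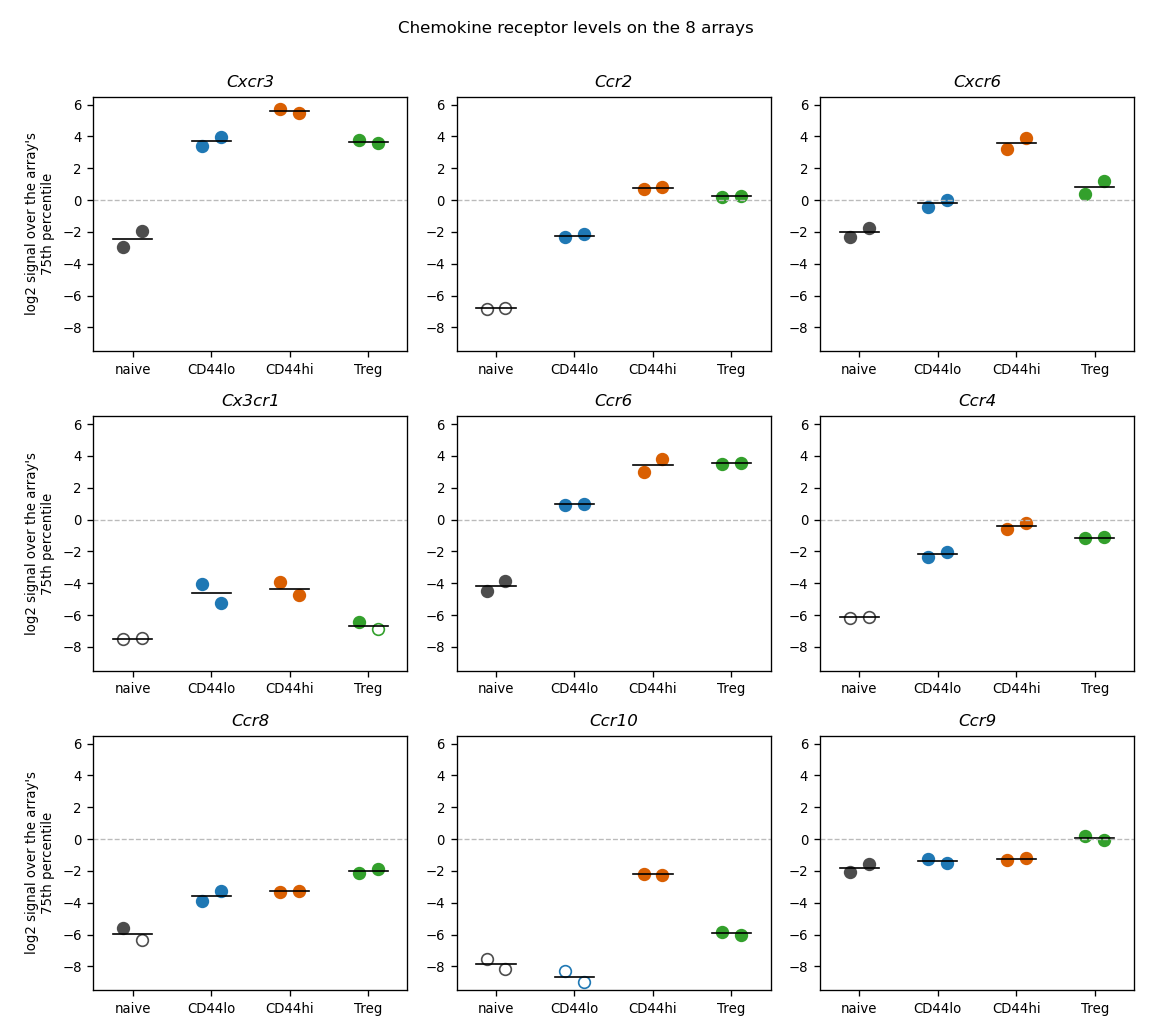
Relative signal of each receptor on the 8 arrays, as log2 of the signal over the array's 75th percentile (vertical axis, dashed line at 0), by group, with black bars for the group means and open circles for arrays on which the probe was not well above background. Cxcr3, Ccr2, Cxcr6, Ccr4 and Ccr10 have their highest mean in CD44hi, Ccr8 and Ccr9 in Treg, and Ccr6 lies at similar levels in both (3.41 and 3.53). For Ccr2, Ccr4 and Ccr8, CD44hi and Treg were not called apart.

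**Figure D2:**
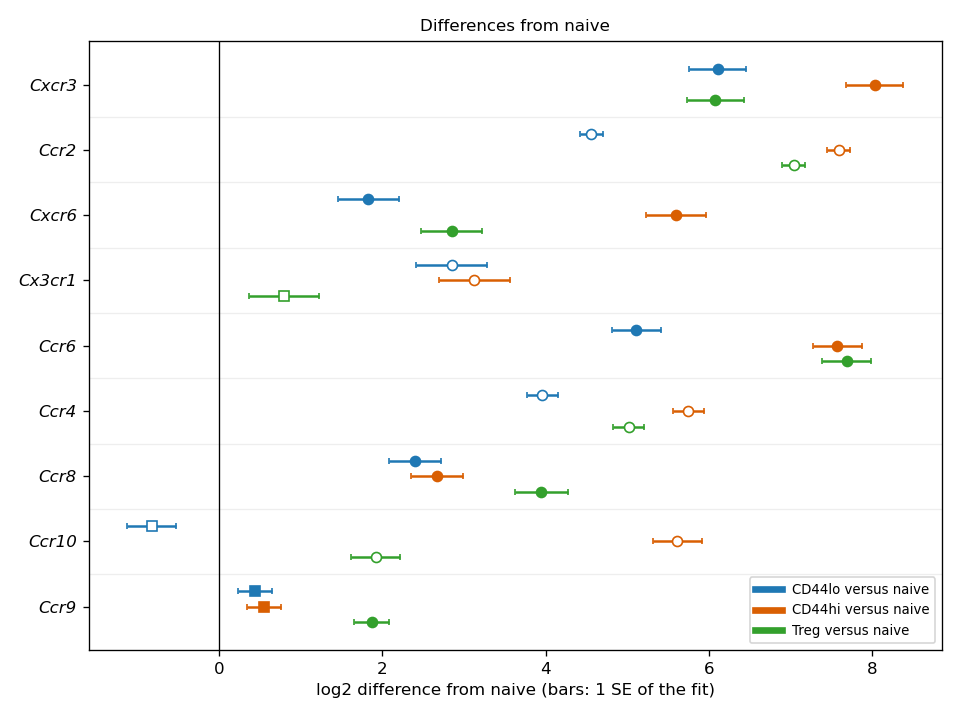
Log2 difference of CD44lo, CD44hi and Treg from naive for each receptor (points, with bars of 1 SE of the limma fit). Circles passed the adjusted p of 0.05 and squares did not, and open symbols mark comparisons in which naive was not well above background on either array, so that the fitted difference is not a bound.

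Cxcr3, the receptor for the interferon-induced chemokines Cxcl9, Cxcl10 and Cxcl11, rose in all 3 groups and most in CD44hi. Its relative signal was 13.2 and 26.4 on the naive arrays, 1056 and 1581 in CD44lo, 5313 and 4487 in CD44hi, and 1341 and 1184 in Treg. The CD44lo and Treg arrays overlapped, and both CD44hi arrays stood above them. Against naive, Cxcr3 was 69.2-fold higher in CD44lo (log2 6.11 ± 0.35, adjusted p = 0.00027), 262-fold higher in CD44hi (log2 8.03 ± 0.35, adjusted p = 4.08e-05) and 67.5-fold higher in Treg (log2 6.08 ± 0.35, adjusted p = 9.5e-05). CD44hi was 3.78-fold above CD44lo (log2 1.92 ± 0.35, adjusted p = 0.0213), and Treg was 3.87-fold below CD44hi (log2 -1.95 ± 0.35, adjusted p = 0.0206). Treg and CD44lo differed by log2 -0.04 (95% interval -0.88 to 0.81, not called). With no filter on dim probes, CD44hi over CD44lo and Treg below CD44hi were not called (adjusted p = 0.0641 and 0.0635). The call of CD44hi over CD44lo was lost without CD44hi array 1 (log2 1.80, adjusted p = 0.0812), CD44hi array 2 (2.04, 0.0699) or CD44lo array 1 (1.63, 0.138), and that of Treg below CD44hi without any 1 of its 4 arrays (log2 -1.83 to -2.08, adjusted p = 0.0694 to 0.125).

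Ccr2 binds the monocyte chemoattractant proteins and marks monocytes as well as effector T cells. Its brighter probe was not well above background on the naive arrays (0.885 and 0.901), read 19.7 and 22.5 in CD44lo, 165 and 179 in CD44hi, and 115 and 119 in Treg. No groups overlapped. Ccr2 was at least 13.8-fold higher in CD44lo than in naive (adjusted p = 6.58e-05), at least 112-fold higher in CD44hi (adjusted p = 1.15e-05) and at least 76.6-fold higher in Treg (adjusted p = 6.3e-06). Over the alternatives these differences fell as low as log2 1.58, 4.25 and 3.72, which lie under those bounds. Ccr2 was 8.15-fold higher in CD44hi than in CD44lo (log2 3.03 ± 0.14, adjusted p = 0.000668) and 5.56-fold higher in Treg than in CD44lo (log2 2.48 ± 0.14, adjusted p = 0.000943). Treg lay below CD44hi by log2 -0.55 ± 0.14, which was not called (adjusted p = 0.0727) but passed in 5 of 18 alternatives, among them the authors' value table (log2 -0.53, adjusted p = 0.0179) and the fits without either naive array (0.0349). The other Ccr2 probe starts 571 bases away and gave the same order, at 1.80 and 1.81 in CD44lo, 15.2 and 17.8 in CD44hi, and 8.90 and 10.1 in Treg.

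Cxcr6, the receptor for the membrane-bound chemokine Cxcl16 and a marker of tissue-resident memory cells, had its largest step between CD44hi and the rest. It read 20.0 and 29.7 in naive, 74.5 and 100 in CD44lo, 938 and 1480 in CD44hi, and 133 and 231 in Treg. The lower CD44hi array stood above every array of the other groups. CD44hi was 48.4-fold above naive (log2 5.60 ± 0.37, adjusted p = 0.000134) and 13.6-fold above CD44lo (log2 3.77 ± 0.37, adjusted p = 0.00301). Treg lay 6.72-fold below CD44hi (log2 -2.75 ± 0.37, adjusted p = 0.00676). It was 7.19-fold above naive (log2 2.85 ± 0.37, adjusted p = 0.00244), and CD44lo 3.55-fold above naive (log2 1.83 ± 0.37, adjusted p = 0.0404). The last call was lost without any 1 of the 4 arrays compared (log2 1.54 to 2.12, adjusted p = 0.0533 to 0.252), with quantile normalization (0.0728), with the slide as a block (0.0766), with no filter on dim probes (0.119) and in the authors' value table (0.0543). Treg and CD44lo differed by log2 1.02 ± 0.37, which was not called (adjusted p = 0.209) but passed with a replicate block (adjusted p = 0.0165).

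Cx3cr1, the receptor for fractalkine (Cx3cl1) and a marker of cytotoxic effector cells and of monocytes, was called above naive in CD44lo and CD44hi and below both of these in Treg. On its brighter probe the relative signal was 0.554 and 0.572 in naive, 6.16 and 2.66 in CD44lo, 6.46 and 3.78 in CD44hi, and 1.14 and 0.847 in Treg, where 1 array was above background. Against naive it was at least 2.65-fold higher in CD44lo (adjusted p = 0.0122) and at least 3.23-fold higher in CD44hi (adjusted p = 0.0027), and Treg was not called (adjusted p = 0.213). Treg lay below CD44lo by log2 -2.04 ± 0.43 (adjusted p = 0.0467) and below CD44hi by log2 -2.33 ± 0.43 (adjusted p = 0.0226). CD44hi and CD44lo differed by log2 0.29 (95% interval -0.75 to 1.32, not called). The dimmer Cx3cr1 probe, whose sequence is given above, starts 1592 bases away, was above background on 2 of 8 arrays, was not tested, and its group means differed by log2 -0.25 to 0.25. With normexp background correction the differences from naive were log2 0.36 in CD44lo (adjusted p = 0.36) and 0.44 in CD44hi (adjusted p = 0.18), and in the authors' value table the former was 0.72 (adjusted p = 0.0933). Treg minus CD44lo and Treg minus CD44hi were log2 -0.72 and -0.80 with normexp (adjusted p = 0.146 and 0.0788) and -0.62 and -0.71 in the authors' value table (adjusted p = 0.135 and 0.0692), and the former was called in 5 of 18 alternatives. The call against naive in CD44lo was lost without naive array 2 (log2 2.87, adjusted p = 0.0957), that of Treg below CD44hi without CD44hi array 1, Treg array 1 or Treg array 2 (log2 -1.95, -2.54 and -2.12, adjusted p = 0.0887, 0.0904 and 0.139), and that of Treg below CD44lo without CD44lo array 1, either Treg array or either naive array (log2 -1.44 to -2.25, adjusted p = 0.0787 to 0.269).

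**Figure D3:**
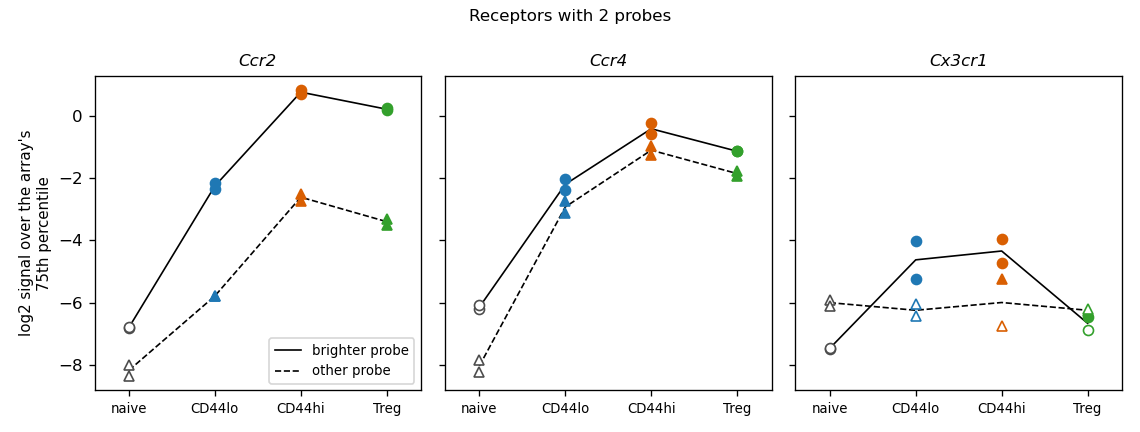
Receptors with 2 probes: log2 signal over the array's 75th percentile on each array, circles and solid lines for the probe that is brighter on average, triangles and dashed lines for the other, open symbols where the probe was not well above background. Both probes of Ccr2 and Ccr4 rise and fall together, and the second Cx3cr1 probe has group means between -6.00 and -6.25.

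Ccr6 binds Ccl20 and is expressed by Th17 cells and by regulatory T cells of mucosal tissue. Its relative signal was 4.56 and 6.92 in naive, 190 and 199 in CD44lo, 808 and 1399 in CD44hi, and 1136 and 1180 in Treg. Both Treg arrays lay between the CD44hi arrays. Ccr6 was 34.6-fold higher in CD44lo than in naive (log2 5.11 ± 0.30, adjusted p = 0.000284), 189-fold higher in CD44hi (log2 7.57 ± 0.30, adjusted p = 3.54e-05) and 206-fold higher in Treg (log2 7.69 ± 0.30, adjusted p = 3.25e-05). It was 5.47-fold higher in CD44hi than in CD44lo (log2 2.45 ± 0.30, adjusted p = 0.00542) and 5.95-fold higher in Treg than in CD44lo (log2 2.57 ± 0.30, adjusted p = 0.00757). The last call was lost without CD44lo array 1 (log2 2.54, adjusted p = 0.063) or Treg array 2 (log2 2.55, adjusted p = 0.0613). Treg and CD44hi differed by log2 0.12 (95% interval -0.60 to 0.85, not called).

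Ccr4, the receptor for Ccl17 and Ccl22 on Th2, skin-homing and regulatory T cells, followed the order of Ccr2. It was not well above background in naive (1.35 and 1.47) and read 19.5 and 24.6 in CD44lo, 67.4 and 85.5 in CD44hi, and 45.7 and 45.9 in Treg. Every group was apart from every other, where 54.6% to 67.8% of tested genes were so in any 1 comparison. Ccr4 was at least 14.2-fold higher in CD44lo than in naive (adjusted p = 0.000153), at least 49.2-fold higher in CD44hi (adjusted p = 2.05e-05) and at least 29.7-fold higher in Treg (adjusted p = 2.77e-05). Over the alternatives these differences fell as low as log2 1.55, 3.05 and 2.34, under those bounds. CD44hi exceeded CD44lo by log2 1.79 ± 0.19 (adjusted p = 0.00339). Treg exceeded CD44lo by log2 1.06 ± 0.19 (adjusted p = 0.0251), a call that was lost without either CD44lo array or either Treg array (log2 0.90 to 1.23). The same call was lost with the slide as a block (adjusted p = 0.0526), with no filter on dim probes (0.0883) and with normexp background correction (log2 0.79, adjusted p = 0.0599). Treg and CD44hi differed by log2 -0.73 ± 0.19, which was not called (adjusted p = 0.0695) but passed in the authors' value table (log2 -0.70, adjusted p = 0.0185).

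Ccr8, which binds Ccl1 and Ccl8 and is known from Th2 cells and activated regulatory T cells, was highest in Treg. The naive arrays read 2.12 and 1.23, the second not well above background, against 6.78 and 10.6 in CD44lo, 9.99 and 10.5 in CD44hi, and 22.8 and 27.2 in Treg. The CD44lo and CD44hi arrays overlapped and the Treg arrays lay above both. Ccr8 was 5.26-fold above naive in CD44lo (log2 2.40 ± 0.32, adjusted p = 0.00677), 6.35-fold in CD44hi (log2 2.67 ± 0.32, adjusted p = 0.00144) and 15.4-fold in Treg (log2 3.95 ± 0.32, adjusted p = 0.000329). Since 1 naive array was not above background, these folds depend on the background correction: with normexp the differences were log2 0.66 in CD44lo (adjusted p = 0.116, not called), 0.78 in CD44hi (adjusted p = 0.0156) and 1.71 in Treg (called). Treg exceeded CD44lo by log2 1.55 ± 0.32 (adjusted p = 0.0417), and this call was lost without any 1 of the CD44lo, CD44hi and Treg arrays (log2 1.23 to 1.88, adjusted p = 0.0608 to 0.247), with the slide as a block (0.0755), with no filter on dim probes (0.123) and in a fit of those 2 groups alone (0.0554). Treg and CD44hi differed by log2 1.28 ± 0.32, which was not called (adjusted p = 0.0609) but passed in 6 of 18 alternatives, among them the authors' value table (log2 0.98, adjusted p = 0.0168), normexp (0.94, 0.0155) and the fits without either naive array (0.0339).

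Ccr10, the receptor for Ccl27 and Ccl28 on skin-homing and mucosal lymphocytes, had its highest signal in CD44hi. It read 0.554 and 0.351 in naive and 0.321 and 0.195 in CD44lo, none of them well above background, 21.8 and 21.2 in CD44hi, and 1.77 and 1.56 in Treg. CD44hi was at least 14.1-fold above naive (adjusted p = 6.7e-05) and at least 19.3-fold above CD44lo (adjusted p = 0.000668). Over the alternatives these differences fell as low as log2 1.88 and 2.25, under those bounds. Treg lay 12.9-fold below CD44hi (log2 -3.69 ± 0.30, adjusted p = 0.00124). Treg was at least 1.09-fold above naive (adjusted p = 0.00573) and at least 1.49-fold above CD44lo (adjusted p = 0.00608). With normexp background correction, Treg differed from naive by log2 -0.21 (adjusted p = 0.323) and from CD44lo by 0.15 (adjusted p = 0.653), and neither was called in the authors' value table, so no direction is given for Ccr10 in Treg against these groups.

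Ccr9, the receptor for Ccl25 of the small intestine and thymus, changed least and rose in Treg. Its relative signal was 24.3 and 34.0 in naive, 42.1 and 36.1 in CD44lo, 40.8 and 43.5 in CD44hi, and 116 and 94.5 in Treg. Both Treg arrays stood above all others. Treg was 3.65-fold above naive (log2 1.87 ± 0.21, adjusted p = 0.00141), 2.69-fold above CD44lo (log2 1.43 ± 0.21, adjusted p = 0.015) and 2.49-fold above CD44hi (log2 1.32 ± 0.21, adjusted p = 0.0141). The calls against CD44lo and CD44hi were lost without any 1 of the 4 arrays compared (log2 1.28 to 1.58, adjusted p = 0.0699 to 0.095, and log2 1.17 to 1.47, adjusted p = 0.0544 to 0.108). Both calls were also lost with no filter on dim probes (adjusted p = 0.0578 and 0.0506). CD44lo and CD44hi differed from naive by log2 0.44 ± 0.21 (adjusted p = 0.295) and 0.55 ± 0.21 (adjusted p = 0.1), neither of them called. Without naive array 2, CD44hi exceeded naive by log2 0.80 (adjusted p = 0.0336).

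Among the 3 groups other than naive, CD44hi held 6 of 9 receptors higher than CD44lo (6.05% of tested genes were called higher) and 0 lower (3.31%). Treg held 6 higher than CD44lo (3.69%), among them Ccr10, whose call was lost with another background correction, and 1 lower (1.87%), namely Cx3cr1. Against CD44hi, Treg held 1 higher (4.15%), Ccr9, and 4 lower (4.04%), which were Cxcr3, Cxcr6, Ccr10 and Cx3cr1. The median log2 differences of the 9 receptors were 1.92, 1.43 and -0.73, beside -0.04, -0.07 and -0.04 for all genes tested. CD44hi had the highest mean for 6 receptors and Treg for 3, and the neighbours CD44hi and Treg were not separated by the test for Ccr2, Ccr4, Ccr6 and Ccr8, although all of these but Ccr6 were called in the authors' value table. Ccr10 passed the filter on dim probes only through CD44hi and Treg, so it could hardly be called lower than CD44lo. Of 54 differences tested for the 9 receptors, 41 were called. Leaving out 1 array at a time, fewer receptors were called in Treg against CD44lo, and fewer or more in Treg against CD44hi, depending on the array. The count over all tested genes moved as well in 6 of these 8 fits in either comparison, so this is not particular to the receptors.

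**Figure D4:**
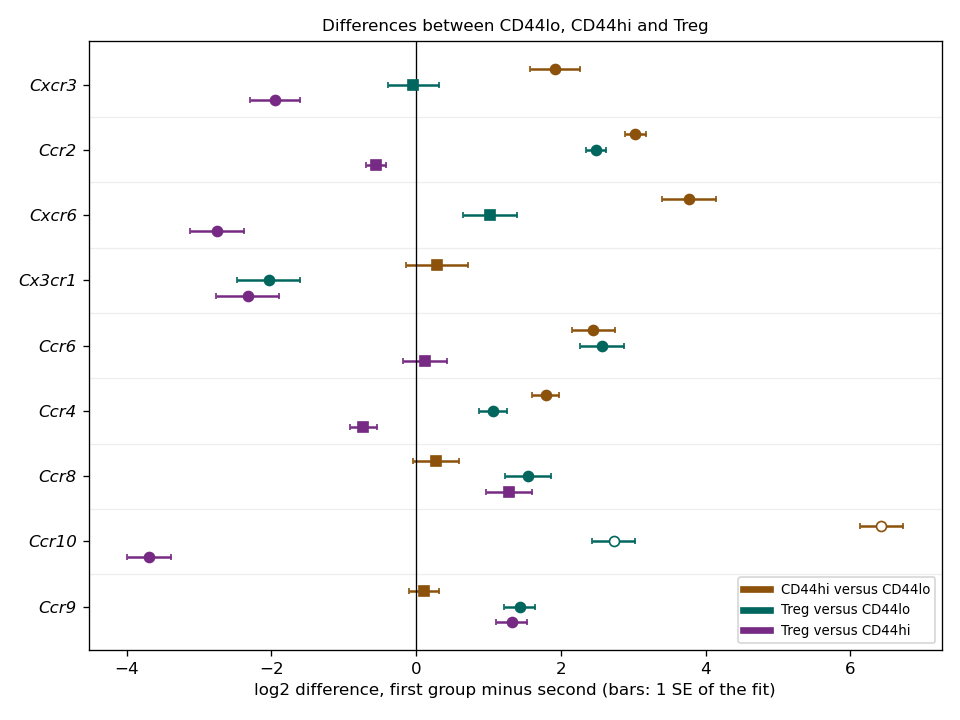
Log2 differences between CD44lo, CD44hi and Treg for each receptor, first group minus second (points, with bars of 1 SE of the limma fit). Circles passed the adjusted p of 0.05, squares did not, and open symbols mark Ccr10 against CD44lo, where CD44lo was not well above background. Cxcr3, Cxcr6, Cx3cr1 and Ccr10 lie left of 0 in Treg against CD44hi and Ccr9 lies right of it.

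Over the 8 arrays, the log2 levels of Ccr2, Ccr4 and Ccr6 ran nearly in parallel, with a Pearson r of 0.99 for each pair. The correlations describe 4 groups of which naive is mostly the lowest, and they carry no p. For some receptors they include readings that were not well above background. Cxcr3 was nearest to Ccr4 (r = 0.98), and Cxcr6 to Ccr2, Ccr4 and Ccr10 (r = 0.88 each). Ccr9 and Cx3cr1 were least alike (r = -0.07). By the same measure, the gene most like Ccr6 was Ahr, a ligand-activated factor of Th17 cells (r = 0.9984), ahead of Nrn1 and Il1rl1. The most like Cxcr3 was B3galt5 (r = 0.9985), the most like Ccr2 was Lrrc49 (r = 0.9946), and the most like Cxcr6 was Pls3, an actin-bundling protein (r = 0.9979). Ccr8 was closest to Gm10413 (r = 0.9966) and Ccr9 to Cd86, a costimulatory ligand (r = 0.9847). Ccr10 was closest to Klk1b16 (r = 0.9868) and Klrk1, the activating receptor NKG2D (r = 0.9799). Klrk1 read 14.2 and 17.9 in CD44hi and 1.79 or less on every other array. Cx3cr1 was closest to S1pr5, a sphingosine-1-phosphate receptor of NK and effector cells (r = 0.9524), at 11.6 and 5.33 in CD44lo, 8.24 and 4.99 in CD44hi, and below 1 on the naive and Treg arrays.

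The promoters of Ccr2, Ccr4 and Ccr6, whose levels ran in parallel, are shown as the 250 bases before the annotated start (RefSeq, GRCm38.p6), read 5′ to 3′ on the gene's strand. They lie at chr9:124101933-124102182 (plus strand), chr9:114496545-114496794 (minus strand) and chr17:8235793-8236042 (plus strand, the first of 2 annotated starts). Capitals mark matches, on either strand, to 4 short motifs: AGGTGTGA for T-box factors, TGACTCA for AP-1, AGGTCA for nuclear receptors, and AGATAA for GATA factors.
Ccr2 promoter: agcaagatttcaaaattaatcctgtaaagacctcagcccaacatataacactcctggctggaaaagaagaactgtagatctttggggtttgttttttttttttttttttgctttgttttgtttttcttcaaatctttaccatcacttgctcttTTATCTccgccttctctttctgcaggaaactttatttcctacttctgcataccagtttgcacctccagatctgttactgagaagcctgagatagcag
Ccr4 promoter: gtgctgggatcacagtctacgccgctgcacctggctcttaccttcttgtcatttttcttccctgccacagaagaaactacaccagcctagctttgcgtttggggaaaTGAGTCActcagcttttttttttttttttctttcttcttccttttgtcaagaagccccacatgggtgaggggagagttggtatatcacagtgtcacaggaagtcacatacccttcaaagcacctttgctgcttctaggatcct
Ccr6 promoter: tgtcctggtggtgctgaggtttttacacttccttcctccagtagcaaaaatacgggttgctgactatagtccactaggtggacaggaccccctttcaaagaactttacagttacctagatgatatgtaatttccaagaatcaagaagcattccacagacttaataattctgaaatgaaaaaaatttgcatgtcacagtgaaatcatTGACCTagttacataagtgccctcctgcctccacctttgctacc

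Promoter windows, 250 bases before to 50 after the start, were matched for 8 of the 9 receptors, with 9 windows in all. The motif TGACTCA was found in the Ccr4 window alone, against 5.2% of 32851 windows of that length in the table. The nuclear receptor motif AGGTCA stood in 1 window of Ccr6 (16.3% of all windows hold it), and AGATAA in those of Ccr2 and Ccr8 and in the other window of Ccr6 (11.2%). None of the 9 windows held AGGTGTGA (1.28% of all windows). The 3 parallel receptors therefore share none of these motifs in the windows shown. A match is a description of the letters and not a binding site, and a missing match says nothing of a factor.

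In gene order, 6 of the 9 receptors lie on chromosome 9 (RefSeq, GRCm38.p6), and Ccr6, Ccr10 and Cxcr3 lie on chromosomes 17, 11 and X. Cx3cr1 and Ccr8 are neighbours, the former with its highest mean in CD44hi and the latter in Treg. Neither top group was called above the next, CD44lo for Cx3cr1 (log2 0.29, adjusted p = 0.754) and CD44hi for Ccr8 (log2 1.28, adjusted p = 0.0609). Ccr9, Cxcr6 and Ccr2 lie in a run of 8 genes, Ccr9, Fyco1, Cxcr6, Xcr1, Ccr1, Ccr1l1, Ccr3 and Ccr2. Within this run, Ccr1 and Ccr1l1 were above background in no group, and Xcr1, a chemokine receptor of cross-presenting dendritic cells, was called in none of the 6 comparisons. Fyco1, a vesicle transport gene that overlaps Cxcr6, was called in none either, with relative signals of 153 to 355. Ccr3, the eotaxin receptor, rose to 11.3 and 15.1 in CD44hi and 19.0 and 19.7 in Treg from 2.13 and 2.47 in naive (adjusted p = 0.000208 and 0.000113). Ccr10 overlaps Cntnap1 in the annotation.

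**Figure D5:**
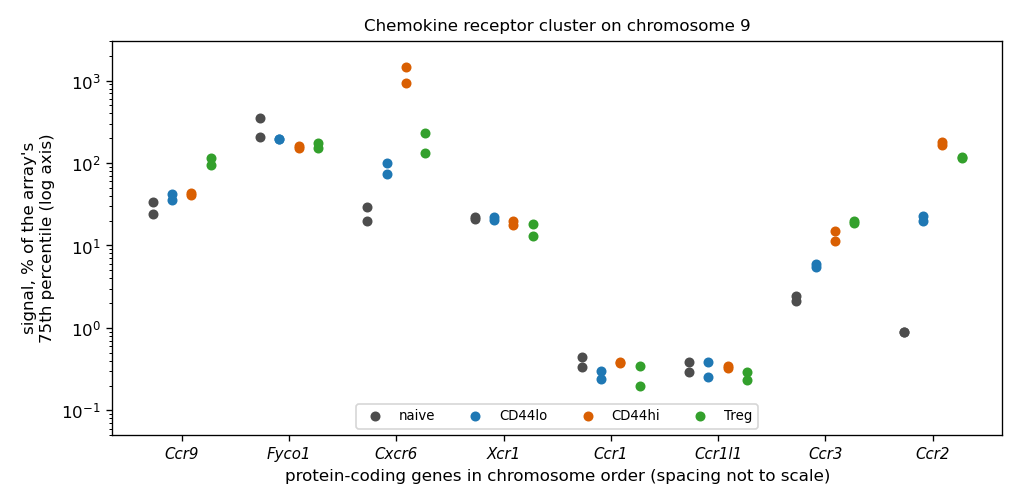
Relative signal (percentage of the array's 75th percentile, log axis) of the 8 genes from Ccr9 to Ccr2 on chromosome 9 on each of the 8 arrays, in gene order and not to scale. Cxcr6 and Ccr2 span the widest range between naive and CD44hi, Fyco1 and Xcr1 lie nearly level, and Ccr1 and Ccr1l1 stay below 0.5.

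Other chemokine receptors of a list of 17 fell into rising and falling members. Of 11 tested, 5 were higher and 0 lower in CD44lo than in naive, 5 higher and 2 lower in CD44hi, and 5 higher and 2 lower in Treg. Their medians were 0.02, 0.53 and -0.23, beside -0.13, -0.15 and -0.2 for all tested genes. Of all tested genes, 4.54%, 13.2% and 11.6% were higher than naive in these groups, and 0.761%, 14.5% and 10.3% lower. Gpr15, a colon-homing receptor, rose at least 10.9-fold, at least 48.6-fold and at least 31.9-fold in CD44lo, CD44hi and Treg (adjusted p = 0.000109, 1.55e-05 and 1.99e-05). Cxcr5, the follicle-homing receptor, rose 21.4-fold, 35.7-fold and 17.3-fold (adjusted p = 0.000372, 7.8e-05 and 0.000196). Ccr7, the lymph node homing receptor, which is named here after its values were seen, went the other way: 3192 and 4182 in naive, 2446 and 2307 in CD44lo, 969 and 807 in CD44hi, and 1575 and 1214 in Treg. It fell 4.13-fold in CD44hi (adjusted p = 0.000774) and 2.64-fold in Treg (adjusted p = 0.00472) against naive.

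Ligands of the 9 receptors were mostly dim, with 9 of 16 tested. Of those tested, 2, 3 and 4 were higher than naive in CD44lo, CD44hi and Treg, and 0 lower. The shares over all tested genes were 4.54%, 13.2% and 11.6% higher and 0.761%, 14.5% and 10.3% lower. Cxcl10, a ligand of Cxcr3, read 1.59 and 1.25 in naive, below the background mark, 23.5 and 45.1 in CD44lo, 91.9 and 111 in CD44hi, and 61.9 and 66.5 in Treg. Cxcl10 was at least 19.5-fold, at least 60.4-fold and at least 38.4-fold higher than naive (adjusted p = 0.000471, 5.62e-05 and 9.04e-05). Ccl1, a ligand of Ccr8, was at least 6.22-fold higher in CD44hi (adjusted p = 0.000871) and at least 9.88-fold higher in Treg (adjusted p = 0.000574). Cx3cl1, the ligand of Cx3cr1, was at least 3.52-fold higher in Treg (adjusted p = 0.000468), a call lost when its probes were averaged or with normexp background correction. Ccl20, the ligand of Ccr6, was named after its values were seen and read 10.9 and 7.53 in Treg against 1.64 to 2.73 on the other 6 arrays. It was at least 4.48-fold above naive in Treg (adjusted p = 0.00292, lost with normexp background correction).

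Genes that carry or end the receptor signal were called in both directions in CD44hi and Treg, as genes were in general. Of 31 tested, 3 were higher and 0 lower than naive in CD44lo, 8 higher and 4 lower in CD44hi, and 6 higher and 7 lower in Treg. All tested genes had 4.54%, 13.2% and 11.6% higher and 0.761%, 14.5% and 10.3% lower. The list medians were -0.17, -0.02 and -0.12, beside -0.13, -0.15 and -0.2 for all tested genes. Rgs16 and Rgs1, which speed the shutdown of G proteins, were higher than naive in all 3 groups, though Rgs1 lost its call in CD44lo without either CD44lo array. Rgs16 was 19.2-fold, 25.1-fold and 31.4-fold above naive in CD44lo, CD44hi and Treg (adjusted p = 0.00469, 0.00107 and 0.000943). Rgs1 read 125 and 237 in naive, 652 and 790 in CD44hi, and 2705 and 2660 in Treg, and was 15.6-fold above naive in Treg (adjusted p = 0.00026). Gnaq, a G protein alpha subunit, was 5.08-fold and 6.22-fold above naive in CD44hi and Treg (adjusted p = 0.00169 and 0.0012).

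Homing partners of the receptors, integrins, selectin ligands and their enzymes, had 16 of 17 genes tested. Of these, 3 were higher and 1 lower than naive in CD44lo, 7 and 3 in CD44hi, and 5 and 3 in Treg. Among all tested genes, 4.54%, 13.2% and 11.6% were higher and 0.761%, 14.5% and 10.3% lower. Itgae, the CD103 chain that binds E-cadherin, read 3.58 and 6.02 in naive, 109 and 177 in CD44lo, 243 and 388 in CD44hi, and 1020 and 1289 in Treg. It was 247-fold above naive in Treg (adjusted p = 4.92e-05) and 66.1-fold in CD44hi (adjusted p = 0.000109). Of the enzymes that build selectin ligands, Gcnt1 was at least 132-fold above naive in CD44hi (adjusted p = 6.22e-05) and at least 69.5-fold in Treg (adjusted p = 0.000108). Fut7 was measured in naive and was 37.3-fold higher in CD44hi (adjusted p = 0.000249) and 16.8-fold higher in Treg (adjusted p = 0.000804). Itgb1, the beta chain of VLA integrins, read 1300 and 1275 in CD44hi and 174 to 258 in CD44lo and Treg, against 47.2 and 53.7 in naive.

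Transcription factors linked to these receptors were all tested, and 8 of 15 were higher than naive in CD44lo, 12 in CD44hi and 8 in Treg, with 0, 0 and 3 lower. Their medians were 1.29, 1.60 and 1.81, beside -0.13, -0.15 and -0.2 for all tested genes. The shares over all tested genes were 4.54%, 13.2% and 11.6% higher and 0.761%, 14.5% and 10.3% lower. Tbx21 (T-bet), a known activator of Cxcr3, read 13.2 and 24.7 in naive, 246 and 431 in CD44lo, 1999 and 1714 in CD44hi, and 221 and 295 in Treg. It was 103-fold above naive in CD44hi (adjusted p = 7.97e-05) and 18.1-fold in CD44lo (adjusted p = 0.00136). Vdr, the vitamin D receptor, read 2.91 and 2.43 in naive, 12.0 and 25.7 in CD44lo, 80.6 and 114 in CD44hi, and 8.35 and 10.5 in Treg, and was 36.0-fold above naive in CD44hi (adjusted p = 0.000189). Ahr was 15.3-fold above naive in Treg (adjusted p = 3.54e-05). Foxp3 was 219-fold above naive in Treg (adjusted p = 2.46e-05).

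Markers of other cells that express these receptors were measured beside them as summed signal in multiples of the 75th percentile. Such sums are weighted toward the brightest probes. The 18 monocyte, macrophage and dendritic cell genes on the array summed to 1.14 to 1.75 in naive, 0.948 to 0.971 in CD44lo, 1.70 to 2.10 in CD44hi and 0.982 to 1.49 in Treg. Csf3r, S100a8 and Clec9a were above background in no group. Of 14 tested markers, 3 were higher in CD44hi than in naive, namely Lyz2 (log2 2.67), Mpeg1 (2.08) and Fcgr1. Fcgr1 was not above background in naive and was at least 1.19-fold higher. The 2 lower markers were Itgax (log2 -1.8) and Fcgr3 (-1.81). Over all tested genes, 13.2% were higher and 14.5% lower in CD44hi than in naive. The 14 NK, innate lymphoid and CD8 markers summed to 18.1 to 23.0 in naive, 9.59 to 10.9 in CD44lo, 7.82 to 7.93 in CD44hi and 7.10 to 7.50 in Treg. In CD44hi 6 of the 12 tested were higher and 3 lower than in naive, and this list holds Klrk1, which was named above. The 3 lower had these relative signals in naive and CD44hi: Cd8b1 869 and 1336 against 342 and 336, Klrd1 607 and 761 against 142 and 103, and Prf1 287 and 146 against 28.3 and 20.2. These probes make up most of each sum, so its fall from naive follows them and not the higher markers. The 12 B cell and plasma cell markers summed to 0.351 to 0.599 in naive, 1.79 to 2.51 in CD44lo, 7.33 to 12.2 in CD44hi and 6.76 to 11.0 in Treg. Of these markers Ebf1 and Fcer2a were above background in no group, while 6 of 9 tested were higher in CD44hi than in naive. The part of monocytes, macrophages, dendritic, B, NK, innate lymphoid and CD8 cells in the receptor differences was not tested. The 7 erythroid and platelet genes summed to 0.220 to 0.603 on all arrays, and none of the 5 tested was called.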

How the data were processed

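Total RNA of 8 sorted CD4 T cell samples was amplified, labelled with Cy3 and hybridised to Agilent 4x44k arrays, per the labels' protocols. The deposited spot intensity values are scanner readings that Agilent Feature Extraction 9.5.1.1 background-subtracted and detrended within each array, per the file headers, and other columns hold its flags per spot. The deposited value table is on a log2 scale with column medians of 6.86 to 6.88. Its rank correlation with the raw signal was at least 0.9999, which fits quantile normalization with no background subtraction, and it served as an alternative only. The submitters' processing notes name limma.

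Here the log2 processed signal was centred on the 75th percentile of each array's non-control probes. A gene was read from its brightest probe and tested where both arrays of at least 1 group marked that probe well above background (17996 genes). One limma 3.58.1 model in R 4.3.3 (lmFit, eBayes, 4 residual and 2.62 prior degrees of freedom) covered the 8 arrays without a block. Calls had a Benjamini-Hochberg adjusted p under 0.05 over all tested genes. With 2 arrays a group, a permutation test cannot go below p = 0.333. Scripts were tested on simulated data. Symbols came from accessions for 23075 probes, current symbols for 6582 and older symbols for 3077, and 8440 kept the name in the files.

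The receptors and lists were chosen with earlier results of these data known. Named besides the receptors were the 3 called genes of largest difference from naive in each list and comparison, the 3 genes most correlated with each receptor over the 8 arrays among genes with a comparable range (usually the first is given), and Foxp3, Cd44, Tnfrsf4 and Cd4. Some genes that this rule names are not reported here. Exceptions are stated where they occur, and Ccr3 and the other chromosome 9 genes are named for their position. Alternatives covered background correction, normalization, probe choice, the dim-probe filter, slide and replicate blocks, and leaving out each array.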

Additional observations from a re-analysis of the deposited data

How the results depend on the processing

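Of 996 values recomputed for the receptors under the alternatives, 898 kept their direction and side of the threshold, 75 fell short of it, 15 passed it and 8 reversed, 1 of them a call. Against naive, 18 of 23 calls were made in every alternative, and among the other groups 8 of 18. With normexp background correction, Treg minus naive was -0.21 for Ccr10 and -0.36 for Cx3cr1. Leaving out 1 array gave ranges that crossed 0 for uncalled differences: Ccr8 in CD44hi minus CD44lo (-0.05 to 0.59), Cx3cr1 in the same comparison (-0.32 to 0.90), Cxcr3 in Treg minus CD44lo (-0.33 to 0.26) and Ccr6 in Treg minus CD44hi (-0.27 to 0.52). Receptors called in Treg against CD44lo numbered 4 with normexp, 3 with no filter and 4 with the slide as a block. In Treg against CD44hi they numbered 2 with no filter and 7 in the authors' value table, where Ccr2, Ccr4 and Ccr8 were also called. With a filter on all 8 arrays, which tests 4 receptors, the 6 comparisons had 3, 3, 4, 3, 2 and 3 calls and the F-test 4. With a replicate block they had 7, 8, 8, 6, 7 and 6 calls and the F-test 9. In Treg against CD44lo this block called Cxcr6 (adjusted p = 0.0165) and no longer Ccr8 (0.0539), and in Treg against CD44hi it also called Ccr4 (0.0404). The sample titles number the arrays m1 and m2 without saying what the numbers mark. Deviations of same-numbered arrays correlated at 0.06 to 0.33, over 0.1 for all pairs of groups but naive and Treg, so a shared source is possible but was not assumed.

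Over all genes, 954, 4999, 3939, 1683, 1000 and 1474 were called in CD44lo, CD44hi and Treg against naive, CD44hi against CD44lo, and Treg against CD44lo and CD44hi. The other alternatives gave 606 to 1273, 2609 to 6920, 2301 to 5202, 839 to 2262, 378 to 1397 and 776 to 2125. The share of higher calls against naive was 73.7%, 34.1% and 32.4% with normexp, from 85.6%, 47.7% and 52.8%, and 70.2% for CD44lo in the authors' value table. The cause was not tested. The number of arrays limits the precision, and signal near background limits Ccr10 and Cx3cr1.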
